A study of Chlorocebus aethiops with 12 samples.

Results

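Y30E and Y30F are forms of the human glucocorticoid receptor with glutamate or phenylalanine in place of a single tyrosine, and they were compared here in cells that received no hormone. The comparison took the 6 arrays of cells given vehicle, 3 titled Y30E-DMSO and 3 titled Y30F-DMSO, out of 12 arrays in the series. COS-1, a kidney cell line of the African green monkey, had been transiently transfected with the FLAG-tagged human receptor mutant together with V5-tagged mouse CCRP, per the sample descriptions, so every group carried both agents. Vehicle was 0.1% DMSO, given 40 h after transfection and kept on for 6 h. The other 6 arrays carried RNA of the same kinds of cells given 100 nM dexamethasone, a synthetic glucocorticoid, for the same time. The labels do not say whether the 3 replicates of a group were separate cultures, and p-values therefore rest on array-to-array spread that could be purely technical. No untransfected cells and no cells with the unmutated receptor are among the groups used here.

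The glucocorticoid receptor is a nuclear receptor that waits in the cytoplasm in a complex with Hsp90 and its co-chaperones, and moves to the nucleus to change transcription once hormone binds. Glutamate is often used to imitate the negative charge of a phosphorylated tyrosine, and phenylalanine to take the place of a tyrosine that cannot be phosphorylated. CCRP, the product of DNAJC7 (NM_003315), is a co-chaperone that binds Hsp70 and Hsp90 and was first known for holding another nuclear receptor, CAR, in the cytoplasm.

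Each value is the log2 spot signal minus that array's 75th percentile, so a value of 0 is a spot as bright as the 75th percentile. Of 41000 probes, 23841 were well above background on all 6 arrays and were tested. The probes are human, so a mismatch to monkey RNA can dim a probe, and levels are compared only within a probe. The array files give RefSeq records and no gene names. Names here were put to 670 records on the array from general knowledge, with no table to check them against, and they cover 811 of the tested probes and 560 genes. The record stands beside each name at its first use, and records whose names were not recalled with confidence were passed over, so a name may be wrong while the record is as deposited. The arrays lay on 3 slides: the 3 Y30F-DMSO arrays on slide 1, Y30E-DMSO replicates 1 and 2 on slide 2, and Y30E-DMSO replicate 3 on slide 3. No slide held both vehicle groups, so receptor and slide cannot be told apart from these 6 arrays alone. Of the dexamethasone arrays, Y30F-DEX replicate 1 lay on slide 1, its replicates 2 and 3 on slide 2, and all of Y30E-DEX on slide 3. So no slide held both dexamethasone groups either. Each difference is therefore set beside the slide shift, which is slide 2 minus slide 3 within Y30E-DMSO. It is also set beside an estimate with slide as a fixed block. That estimate is slide 2 Y30E-DMSO minus Y30F-DMSO, less the shift from slide 1 to slide 2 within Y30F-DEX. On slide 1 that shift rests on Y30F-DEX replicate 1 alone.

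In the fit of the 4 group means no probe separated the receptors past the threshold under vehicle, and 88.3% of differences lay within 0.25 of 0 on the log2 scale. With limma and Benjamini-Hochberg adjustment, 0 of 23841 probes (0%) passed an adjusted p of 0.05, and the smallest adjusted p was 0.106. At an unadjusted p under 0.05 there were 2823 probes (11.8%), of which 2045 (8.58%) were higher and 778 (3.26%) lower in Y30E. This balance depended on the scaling. It turned to 1088 higher and 1883 lower with quantile normalization, and to 718 and 8882 with median centring. Normexp background correction with the 75th percentile gave 3242 higher and 761 lower. With slide as a fixed block, 0 probes passed and 1626 (6.82%) had an unadjusted p under 0.05. The median size of the difference was 0.07 on the log2 scale, against a median size of 0.09 for the slide shift. The receptor difference was the larger for 10238 probes (42.9%). The slide shift averages fewer arrays, replicates 1 and 2 against replicate 3 alone, so it carries more array noise. The sizes are therefore not like for like. The slide shift itself, between arrays of the same receptor and treatment, passed an adjusted p of 0.05 in limma for 391 probes (1.64%). That count comes from a fit with a mean for each group on each slide. In the same fit the slide 2 Y30E-DMSO arrays differed from Y30F-DMSO for 1309 probes (5.49%), 1261 of them higher, and the slide 3 array for 64 (0.268%), 63 of them higher. Both did so in the same direction for 24 probes. The count of 0 depended on the arrays and the scaling: it was 387 without Y30F-DEX replicate 1, 13 without Y30F-DMSO replicate 2, 10 without Y30E-DMSO replicate 3 and 1 without Y30E-DEX replicate 3. Centring each array on its median moved the median of all probes to -0.17 and called 1946 probes, 135 higher and 1811 lower. Array weights gave 2062, and the 6 vehicle arrays fitted alone gave 55.

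**Figure D1:**
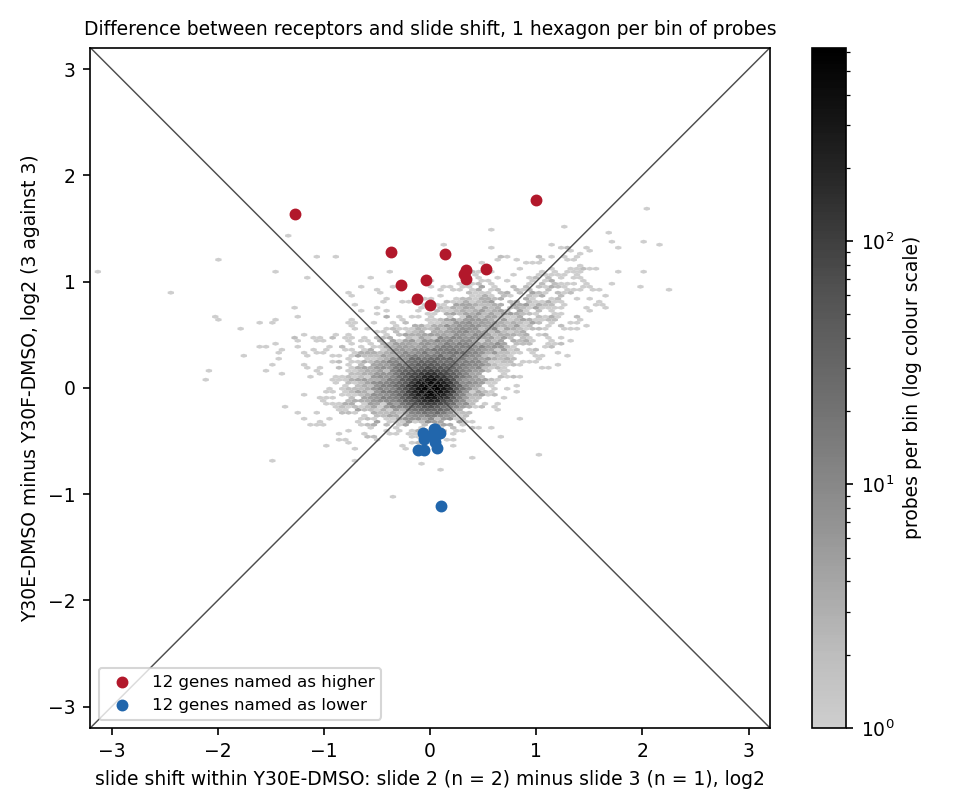
The vertical axis is the log2 difference Y30E-DMSO minus Y30F-DMSO (3 arrays against 3) and the horizontal axis the log2 slide shift within Y30E-DMSO, for 23841 probes binned in hexagons; points above or below both diagonals differ more between receptors than between slides. The 12 genes named as higher and the 12 named as lower lie there by the rule that chose them, and of the 99 probes more than 1 higher in Y30E, 57 also had a slide shift above 1.

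The differences were unevenly spread over signal strength. Among the dimmest 7947 probes, below -2.07, 1498 probes were higher and 169 lower in Y30E at an unadjusted p under 0.05. Among the brightest 7947, above 0.64, the balance was the other way, with 112 higher and 321 lower. With slide as a fixed block the dimmest held 485 higher and 270 lower, and the brightest 197 higher and 136 lower. Of the 99 probes more than 1 higher in Y30E on the log2 scale, 95 were among the dimmest 7947. A second slide shift, slide 2 minus slide 1 within Y30F-DEX, was above 1 for 82 of those 99 probes, and 1 of the 99 kept a difference above 1 with slide as a block. These counts are not separate checks, since the block estimate subtracts this same shift, whose slide 1 side is replicate 1 alone. Across probes, the slide 2 difference between receptors and this Y30F-DEX slide shift had a Pearson correlation of 0.68 among the dimmest 7947 and -0.23 among the brightest 7947. That correlation is a description, since the points share slides 1 and 2.

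**Figure D2:**
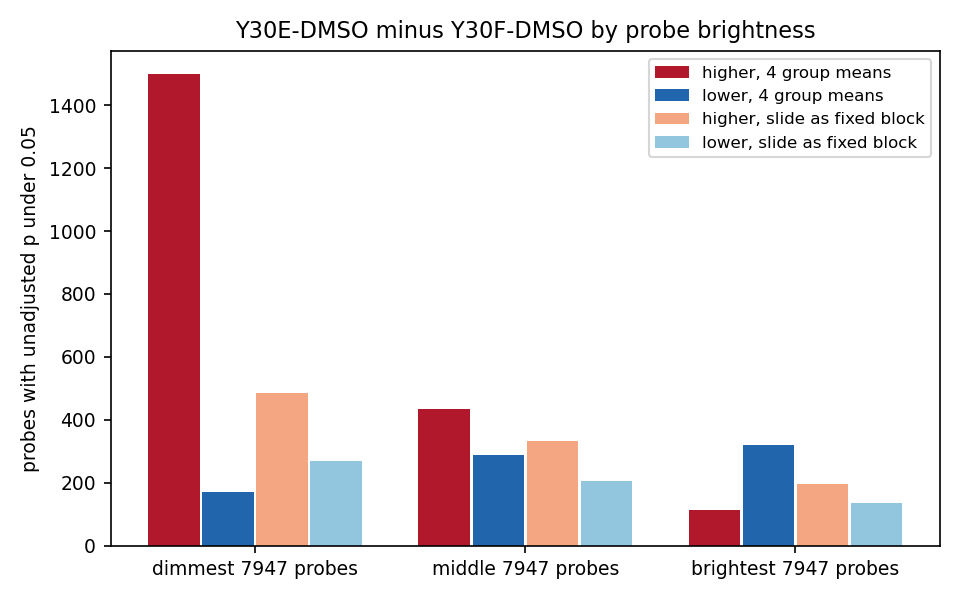
Bars count probes with an unadjusted p under 0.05 in limma, higher or lower in Y30E-DMSO than in Y30F-DMSO, for the dimmest, middle and brightest 7947 of the 23841 probes by mean signal. The 1498 higher probes of the dimmest set become 485 with slide as a fixed block, while the brightest set has more lower than higher probes without the block (321 against 112) and more higher than lower with it (197 against 136).

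The transfected genes came first. For NR3C1 (NM_001018077), the receptor itself, the brighter of its 2 probes read -1.07, -0.88 and -1.03 on the Y30F-DMSO arrays and -0.94, -0.97 and -0.91 on the Y30E-DMSO arrays. These overlapped, and the difference was 0.05 ± 0.07 (SE, n = 3 against 3; 95% interval -0.10 to 0.21; limma adjusted p = 0.836). The dimmer probe differed by 0.02 ± 0.06. The files do not place either probe in the transfected sequence, so they do not check the labels.

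DNAJC7, the gene of CCRP, was slightly higher with Y30E under both treatments. Its probe read 5.34, 5.33 and 5.23 on the Y30F-DMSO arrays and 5.41, 5.51 and 5.47 on the Y30E-DMSO arrays. Every Y30E array lay above every Y30F array. The difference was 0.17 ± 0.05 (1.12-fold; 95% interval 0.05 to 0.28; limma adjusted p = 0.277). It was 0.16 on slide 2, 0.17 on slide 3, 0.16 with slide as a block and 0.18 ± 0.05 under dexamethasone. None of these passed an adjusted p of 0.05. With median centring the vehicle difference was -0.02. Whether the human probe reads the mouse plasmid, the monkey gene or both is not given in the sources used here.

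The genes of the receptor's chaperone cycle differed little. Of 24 measured, 0 passed an adjusted p. At an unadjusted p under 0.05 DNAJC7 was higher and FKBP4 (NM_002014) and CDC37 (NM_007065) were lower, beside 8.58% and 3.26% of all probes. The median of the 24 was -0.03, against 0.01 over all probes tested. FKBP4, a co-chaperone that aids the receptor's transport to the nucleus, differed by -0.15 ± 0.05 (limma adjusted p = 0.337). The same probe gave -0.23 with slide as a block and -0.02 under dexamethasone, and the gene's other probe differed by 0.005. FKBP5 (NM_004117), which holds the receptor in a less active state and is a familiar hormone-induced gene, differed by -0.0016.

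Targets that hormone-bound receptor is known to raise lay on both sides of 0. Of 33 measured, 0 passed an adjusted p, 15 lay above 0 and 18 below, and their median was -0.01. An unadjusted p under 0.05 was reached by 4 higher and 2 lower, beside 8.58% and 3.26% of all probes. PDK4 (NM_002612), a kinase that restrains glucose oxidation, had the highest difference, 0.69 ± 0.13 (limma adjusted p = 0.168), with a slide shift of 0.23. It was 0.28 with slide as a block and was 0.02 under dexamethasone. KLF9 (NM_001206), a transcription factor, differed by 0.22 and lay apart between groups, with 0.11 with slide as a block. TSC22D3 (NM_004089) differed by 0.12, PER1 (NM_002616) by 0.09, SGK1 (NM_005627) by 0.01 and DUSP1 (NM_004417) by -0.01, all at unadjusted p-values above 0.05. Of the inflammatory genes that the receptor is known to repress, 8 were measured and 0 had an unadjusted p under 0.05. The lists used here were drawn up with earlier results of these data known.

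Over all 22 lists, 460 genes were measured and 0 passed an adjusted p. At an unadjusted p under 0.05 there were 23 higher and 31 lower (11.7%, close to the 11.8% of all probes), and 94.8% lay within 0.25 of 0. List medians ran from -0.08 for the metallothioneins to 0.08 for the histone genes. Median centring, which moved the median of all probes down, moved the median of every list.

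Among the immediate early genes, which respond fast to growth signals, 4 of 24 were lower and 1 higher at an unadjusted p under 0.05, where 3.26% of all probes were lower and 8.58% higher. FOS (NM_005252), a subunit of the AP-1 factor, differed by -0.24, and was -0.25 with slide as a block and -0.26 under dexamethasone. CCN2 (NM_001901), a matrix protein, differed by -0.22, with -0.24 and -0.29 by the same estimates. IER3 (NM_003897) differed by -0.16, with -0.10 and -0.09. DUSP6 (NM_001946), a phosphatase of ERK, differed by -0.39 but by 0.09 with slide as a block. EGR1 (NM_001964), in the same list, differed by 0.06 and JUN (NM_002228) by 0.08.

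Of 22 TGF-beta targets and matrix genes, 18 lay below 0, 5 were lower and 1 higher at an unadjusted p under 0.05, beside the same 3.26% and 8.58% of all probes; 15 of the 22 are among the brightest 7947 probes, where 321 were lower and 112 higher. THBS1 (NM_003246), which activates TGF-beta, differed by -0.23, COL4A1 (NM_001845) by -0.15 and SMAD7 (NM_005904), an inhibitor of the pathway, by -0.12. LTBP2 (NM_000428) was the exception at 0.60. Of 24 cholesterol and fatty acid synthesis genes, 21 lay below 0. Their median was -0.05 and their median signal 1.25, within the range of the brightest 7947 probes, whose median difference was -0.01. SREBF1 (NM_001005291) and FASN (NM_004104), at -0.10 and -0.20, did not reach an unadjusted p of 0.05. In the unfolded protein response list CALR (NM_004343), a chaperone of the endoplasmic reticulum, differed by -0.23 ± 0.07 and HSPB1 (NM_001540) of the heat shock list by -0.17 ± 0.05.

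Histone genes lay mostly above 0: 11 of 15 lay above 0 and 5 had arrays that did not overlap, all higher, where 11.7% of all probes were higher without overlap. At an unadjusted p under 0.05, 2 of the 15 were higher. H3C10 (NM_003536) differed by 0.36 ± 0.08 and H4C8 (NM_003543) by 0.25. The list's median was 0.08, against 0.004 over the middle 7947 probes by brightness, where its median signal of 0.60 falls. With slide as a block the list's median was 0.16. Under dexamethasone H3C10 differed by 0.06 and H4C8 by 0.12. Histone genes have near-identical copies that a probe may not tell apart. The metallothioneins, which also share sequence, lay below 0 in 9 of 10, with 0 at an unadjusted p under 0.05. Their median was -0.08 and their median signal 5.37, within the range of the brightest 7947 probes, whose median difference was -0.01. In the interferon list MX2 (NM_002463) was highest at 0.81, and in the oxidative stress list GPX2 (NM_002083) at 0.79. Both are dim probes, and MX2 was 0.10 with slide as a block.

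**Figure D3:**
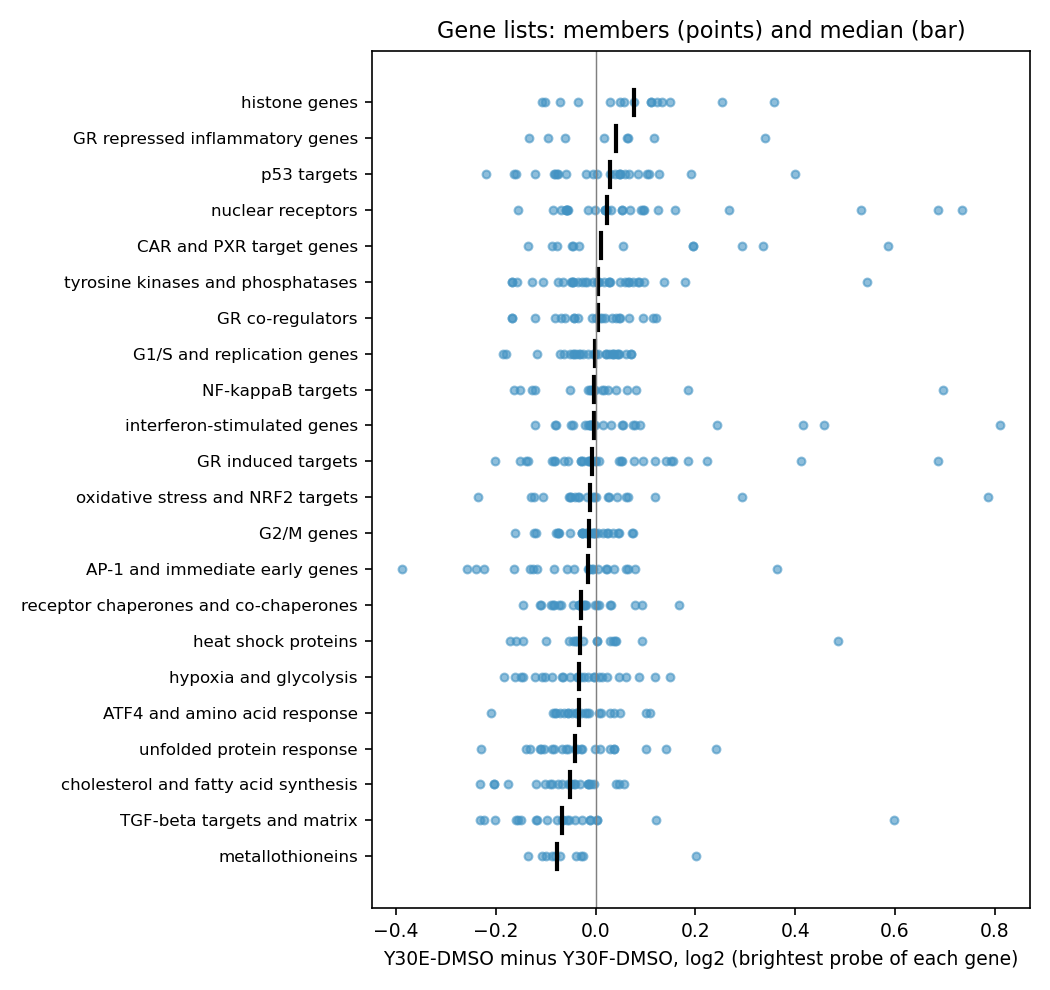
Each point is the log2 difference Y30E-DMSO minus Y30F-DMSO of 1 gene (brightest probe), and each bar is the median of its list, for 22 lists. Medians lie between -0.08 and 0.08, and the isolated points on the right include MX2 at 0.81 and GPX2 at 0.79.

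Genes were named next where the arrays did not overlap, the difference exceeded the slide shift, and both slides of Y30E-DMSO showed it. All 3 Y30E-DMSO arrays lay above the 3 Y30F-DMSO arrays for 2785 probes (11.7%) and below them for 1458 (6.12%). Differences also larger than the slide shift numbered 2469 (10.4%) higher and 1359 (5.7%) lower. The 12 higher genes were all among the dimmest 7947 probes, at differences of 0.78 to 1.77. They were named after their ranks were seen, and 10 records ranked among them were passed over.

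FCRL2 (NM_030764), a receptor of B cells, read -4.03, -4.35 and -4.49 on the Y30F-DMSO arrays and -2.996, -2.97 and -3.13 on the Y30E-DMSO arrays. The groups were far apart and the difference was 1.26 ± 0.21 (limma adjusted p = 0.149), with a slide shift of 0.14. With slide as a block it was 0.39 ± 0.20, and under dexamethasone -0.05 ± 0.21. PTPRCAP (NM_005608), a partner of the phosphatase CD45, read -4.45, -4.12 and -4.43 with Y30F and -2.20, -2.28 and -3.23 with Y30E. Its slide 2 arrays were the high ones, the difference was 1.77 ± 0.56, and the block estimate was -0.31 ± 0.39. The Y30F-DEX slide shift for this probe was 2.41. SIX3 (NM_005413), a homeobox factor, differed by 0.78 ± 0.13 (slide shift 0.00; block 0.50 ± 0.23). MAGEA6 (NM_175868), a cancer-testis antigen, differed by 1.11 ± 0.19 (block 0.56 ± 0.23).

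The other 8 higher genes were GPR15 (NM_005290), CUBN (NM_001081), RETNLB (NM_032579), MUSK (NM_005592), FOLR2 (NM_000803), DSCR4 (NM_005867), CHIA (NM_021797) and XPNPEP2 (NM_003399). The block estimate was on the same side of 0 for 5 of the 12, and the dexamethasone difference for 2. The Y30F-DEX slide shift, which the block estimate subtracts, was positive for all 12 and larger than the receptor difference for 6. Its part in the differences was not tested. Several of these genes belong to blood cells; of 8 blood cell markers 6 were above background on all 6 arrays and PTPRC (NM_002838) was on none. Their summed signal, relative to the 75th percentile, ran from 2.50 to 2.71 over the Y30F-DMSO arrays and from 2.50 to 2.64 over the Y30E-DMSO arrays, which overlapped.

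The 12 lower genes were all among the dimmest 7947 probes as well, at differences of -1.11 to -0.39, and their names too were written after their ranks were seen. TMEM135 (NM_022918) read -3.90, -3.37 and -4.68 on the Y30F-DMSO arrays and -5.12, -5.00 and -5.16 on the Y30E-DMSO arrays. Its Y30F values spread widely, and the difference was -1.11 ± 0.25 (limma adjusted p = 0.189), with 2 other probes of the gene between -0.09 and -0.03. ST13 (NM_003932), an Hsp70 co-chaperone, differed by -0.58 ± 0.09 at this dim probe, while its 7 other probes lay between -0.14 and 0.05. BMI1 (NM_005180), a Polycomb protein, differed by -0.44 ± 0.14 and by -0.42 with slide as a block. The others were CCDC93 (NM_019044), AGPAT3 (NM_020132), POFUT1 (NM_172236), MALT1 (NM_006785), UBE2Q2 (NM_173469), OCLN (NM_002538), AHI1 (NM_017651), DUSP6 and ZBTB6 (NM_006626). An unadjusted p under 0.05 in the vehicle comparison was reached by 9 of the 12, and not by CCDC93, OCLN or AHI1. The block estimate kept the direction for 11 of 12 and the dexamethasone difference for 7. Under dexamethasone CCDC93 differed by 1.30 and AHI1 by 1.07. Of the 8 genes with other probes, 0 had another probe lower at an unadjusted p under 0.05. For AHI1, 2 of the 3 other probes, the brightest among them, were higher at an unadjusted p under 0.05, by 0.27 and 0.37.

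A smaller set held its direction by all 3 estimates: an unadjusted p under 0.05 in the vehicle comparison, with slide as a block, and under dexamethasone. It was defined after the data were seen and held 48 higher (0.201%) and 29 lower (0.122%) probes. The dexamethasone comparison uses none of the 6 vehicle arrays. No slide held both dexamethasone groups, so receptor and slide cannot be told apart there either. The block estimate shares the Y30F-DMSO and the slide 2 Y30E-DMSO arrays with the vehicle difference. It also subtracts the slide 2 Y30F-DEX arrays, as the dexamethasone difference does, so agreement by all 3 is partly built in. TOR2A (NM_130459), of the torsin family of ATPases, read -3.59, -3.59 and -3.58 with Y30F and -3.14, -2.97 and -3.01 with Y30E. It was 0.55 ± 0.07 higher (limma adjusted p = 0.106), 0.50 with slide as a block and 0.52 under dexamethasone. Its other probe differed by -0.07. ZBTB6, a zinc finger protein, read -4.11, -4.17 and -4.15 with Y30F and -4.55, -4.49 and -4.57 with Y30E. It was -0.39 ± 0.08, then -0.49 and -0.48 by the other estimates.

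The other higher genes named in this set were BCAN (NM_021948), GK (NM_000167), CENPB (NM_001810), MALAT1 (NR_002819), ALOX12B (NM_001139), MEFV (NM_000243) and CTSG (NM_001911). GK, glycerol kinase, differed by 0.32 ± 0.06 and by 0.34 and 0.22 by the other estimates. MALAT1, a nuclear long non-coding RNA, differed by 0.37 at this probe, by -0.10 at its brightest probe and by 0.30 and 0.09 at the other 2. CENPB, a centromere protein, differed by 0.43 at this probe and by -0.11 at its other probe. The other lower genes were GET1 (NM_004627), ORC1 (NM_004153), ARF3 (NM_001659), SLC20A1 (NM_005415), RTN4 (NM_020532), PABPC4 (NM_003819) and MSN (NM_002444). MSN differed by -0.21 at this probe and by -0.22 at its brightest, and by 0.18 and 0.13 at the other 2. ARF3 differed by -0.19 at this probe and by -0.11 and 0.13 at its other probes. RTN4, which shapes the endoplasmic reticulum, differed by -0.25 ± 0.07, -0.37 and -0.23. SLC20A1, a phosphate transporter, differed by -0.23 ± 0.07, -0.39 and -0.24, and by -0.10 at its other, brighter probe. Over all probes, an unadjusted p under 0.05 in both the vehicle and the dexamethasone comparison was reached by 573. The direction agreed for 264 higher and 169 lower, and was opposite for 119 higher and 21 lower under vehicle. Over all 23841 probes the vehicle and dexamethasone differences had a Pearson correlation of -0.16, and of -0.28, 0.10 and 0.28 among the dimmest, middle and brightest 7947. These are descriptions over probes of shared slides.

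**Figure D4:**
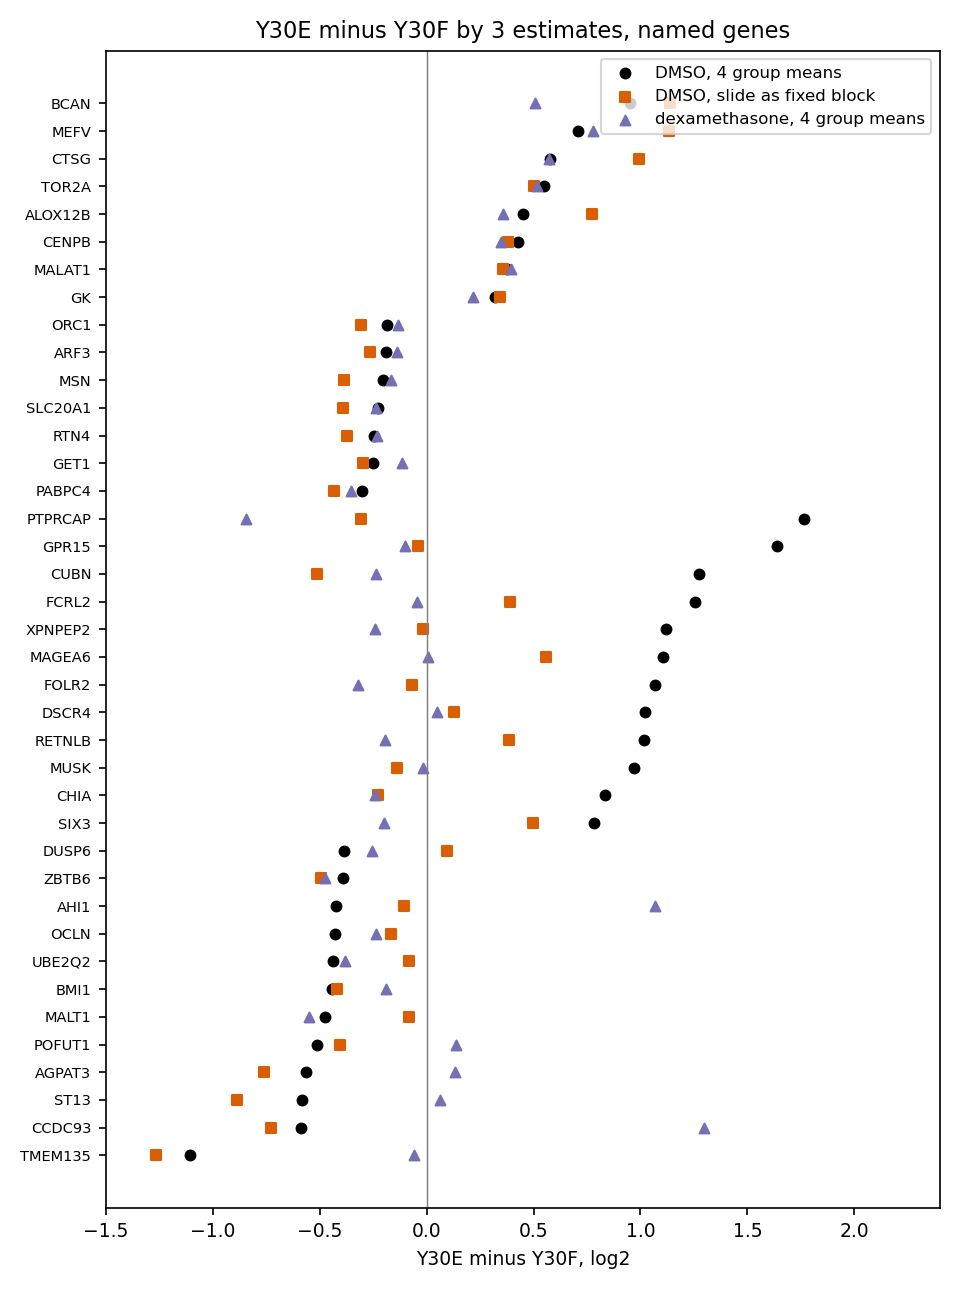
Symbols give the log2 difference Y30E minus Y30F under vehicle (circles), under vehicle with slide as a fixed block (squares) and under dexamethasone (triangles) for named genes. The upper 15 genes were chosen for the same sign by all 3 estimates; among the 24 below them, the block estimate of 5 of the 12 higher genes is above 0.

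Bright probes carry the least spread, and the brightest 7947 were described apart, again after the data were seen. Tested alone, they gave 0 probes past an adjusted p of 0.05. SERPINE2 (NM_006216), a secreted protease inhibitor, read 1.12, 0.99 and 1.05 with Y30F and 0.80, 0.73 and 0.75 with Y30E. All Y30E arrays were lower, and the difference was -0.29 ± 0.06, with -0.44 ± 0.11 with slide as a block and -0.13 ± 0.06 under dexamethasone. FKBP1A (NM_000801), the protein that binds the drug FK506, read 2.34, 2.31 and 2.42 with Y30F and 2.07, 2.05 and 2.12 with Y30E. It differed by -0.28 ± 0.07, its other probe by -0.22, and by -0.16 under dexamethasone. S100A11 (NM_005620), a calcium-binding protein, differed by -0.17 ± 0.05, its other probe by -0.09, and by -0.08 under dexamethasone. TFG (NM_006070), of the secretory pathway, differed by -0.21 ± 0.05, its other probe by -0.08, and by -0.02 under dexamethasone. In the other direction, where 123 records were passed over for want of a name, AFF4 (NM_014423), of the super elongation complex, read 0.85, 0.92 and 0.92 with Y30F and 1.16, 1.08 and 1.18 with Y30E. It differed by 0.24 ± 0.06 and by -0.07 under dexamethasone, and its 4 other probes lay between -0.10 and 0.13.

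**Figure D5:**
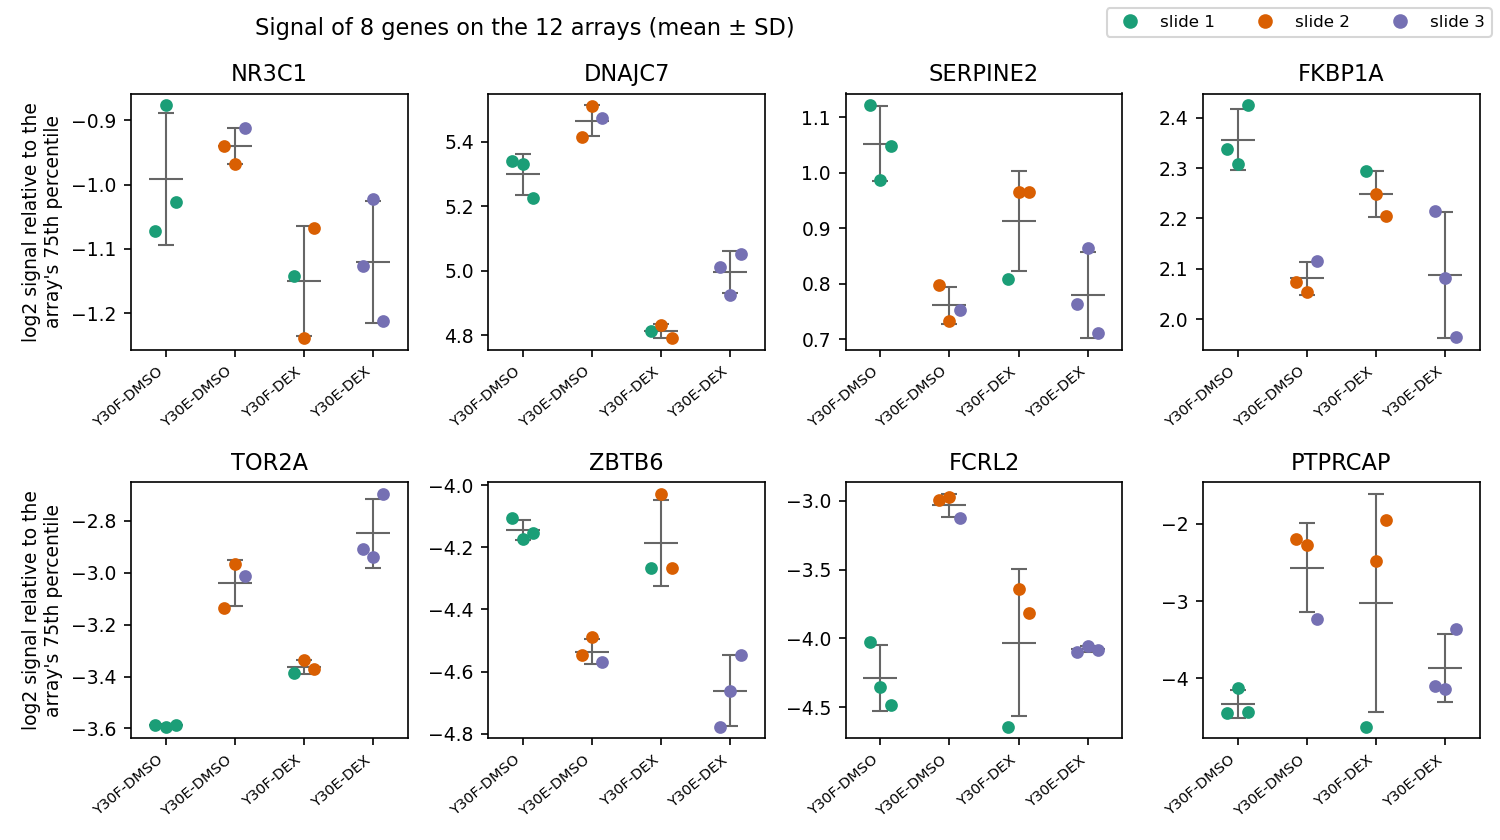
Points are single arrays coloured by slide, with the mean and SD (n = 3) of each group, on the log2 scale relative to the array's 75th percentile; each panel has its own vertical range. SERPINE2 and FKBP1A are lower with Y30E on both of its vehicle slides, and for PTPRCAP the slide 2 arrays are high in both Y30E-DMSO and Y30F-DEX.

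Probes seen in 1 vehicle group alone were mostly seen with Y30E. Of 40939 probes, 171 (0.418%) were well above background on the 3 Y30E-DMSO arrays and on 0 Y30F-DMSO arrays, and 7 (0.0171%) the other way. Y30F-DMSO replicate 1 had the fewest spots above background, and without it, an alternative chosen after seeing the data, the counts were 186 and 67. Within Y30E-DMSO alone, 1032 probes were seen on both slide 2 arrays and not on slide 3, and 546 the other way. Within Y30F-DMSO, all on slide 1, 1209 were missed on replicate 1 alone, 69 on replicate 2 alone and 60 on replicate 3 alone. Each of these rules asks for fewer arrays than the rule that gave 171. Of the 171, 153 were seen on at least 1 slide 2 array of Y30F-DEX and 8 on its slide 1 array. A probe below background has only a bound, so folds here are lower limits: the Y30E mean against the higher of the dimmest detected signal and the probe's own.

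MPEG1 (NM_001039396), a pore-forming protein of macrophages, read -3.83, -3.68 and -4.56 on the Y30E-DMSO arrays and was not well above background with Y30F. It was at least 2.59-fold higher with Y30E. It was also seen on 3 Y30E-DEX arrays and 0 Y30F-DEX arrays. GPR4 (NM_005282), a proton-sensing receptor, was at least 1.62-fold higher and was seen on 2 Y30F-DEX arrays. Each gene has 1 other probe, which was above background on 0 of the 6 vehicle arrays. EDA2R (NM_021783), IL1RL2 (NM_003854), ZP3 (NM_007155) and ASIP (NM_001672) were at least 1.49-fold, 1.38-fold, 1.92-fold and 1.92-fold higher. No p is given for these probes, since each was detected through the group where it is high. Of those seen with Y30F alone, ELOVL7 (NM_024930), a fatty acid elongase, was at least 1.52-fold higher with Y30F, while its other probe was seen on all 6 arrays at means of -1.01 with Y30F and -1.15 with Y30E. SP4 (NM_003112), NEK11 (NM_024800) and DMXL2 (NM_015263) were at least 1.25-fold, 1.43-fold and 1.21-fold higher.

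The receptor difference was also set against that under dexamethasone probe by probe. The test of whether they differ gave 0 probes past an adjusted p of 0.05 in limma and 2366 at an unadjusted p under 0.05. Under dexamethasone itself 0 probes passed an adjusted p and 3236 had an unadjusted p under 0.05. Markers of more than 1 cell type were present. Of 14 kidney epithelial markers 11, among them KRT8 (NM_002273), KRT18 (NM_000224), AQP1 (NM_198098) and PAX8 (NM_003466), were above background on all 6 arrays, while LRP2 (NM_004525) was on none. Of 11 fibroblast or mesenchymal markers 8 were above background on all 6 arrays, among them VIM (NM_003380) and SPARC (NM_003118), while COL1A2 (NM_000089) was on none. The same held for 2 of 6 endothelial markers: TEK (NM_000459) and VWF (NM_000552), with PECAM1 (NM_000442) and CDH5 (NM_001795) on none. It held for 3 of 6 neural markers: TUBB3 (NM_006086), GFAP (NM_002055) and RBFOX3 (NM_001082575), with NEFL (NM_006158) and SYP (NM_003179) on none. It held for 3 of 6 hepatocyte and 2 of 6 muscle markers. The 75th percentile signal ran from 706 to 876 over the 6 arrays and the share of spots above background from 60.5% to 67.0%.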

How the data were processed

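Per the labels' protocols, 500 ng of RNA per sample was Cy3-labelled and run on Agilent human arrays. The deposited intensity is the processed signal of Feature Extraction 12, background-subtracted and not scaled between arrays, per the file headers and the submitters' processing notes. Other columns used were spot flags and median intensities, as deposited. Control and outlier spots were dropped, spots of a probe averaged, and log2 values set to each array's 75th percentile. Probes well above background on all 6 vehicle arrays were fitted with limma 3.58.1 (R 4.3.3) over 12 arrays as 4 group means, with Benjamini-Hochberg adjustment. A 2nd fit with group-by-slide means gave the slide shift.

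Members, lists and rules were chosen with earlier results of these data known. Genes were named by these rules: the transfected genes; up to 12 per direction past the threshold (0 found); up to 12 per direction whose arrays do not overlap and whose difference exceeds the slide shift, ranked by the smaller slide difference; the extremes of each list; and up to 6 per direction detected in 1 group alone. The rules call for names from a reference table; none was used here, so RefSeq names were recalled and not checked, and those of high-ranked genes were written after their values were seen. Some may be wrong or outdated; the record is the identity. Some list extremes are not reported here. No probe sequence was used. One label lists a single construct per mutant while descriptions list both, and the descriptions were followed. The fit was tested on simulated data. The normexp correction used the median signal. Same-numbered vehicle arrays had deviations that correlated at -0.09, 0.09 and 0.06, so the numbers were not taken as pairs.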

Additional observations from a re-analysis of the deposited data

How the results depend on the processing

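The count of 0 probes past the threshold stayed 0 with normexp (with the 75th percentile or quantiles), the series table, the filter on all 12 arrays, 1 probe per record, slide as a fixed or a random block, the replicate block (0), a trended robust prior, an adjusted p of 0.10 and the brightest 7947 probes alone. It was 2 with quantile normalization, 1946 with median centring, 4 with no filter, 2 with a filter on at least 1 vehicle group (both probes entered through Y30E-DMSO alone), 50 without slide 2, 55 from the 6 vehicle arrays alone and 2062 with array weights. Leaving out 1 array gave 0 to 387. The slide shift count of 391 was 663 with no filter. The 178 probes detected in 1 group alone were 1001 with detection on at least 2 of 3 arrays and 253 without Y30F-DMSO replicate 1, which was chosen after seeing the data. The cause of these moves was not tested.

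Of the named differences, these changed sign. With slide as a fixed block, the difference was -0.042 for GPR15, -0.51 for CUBN, -0.31 for PTPRCAP, -0.14 for MUSK, -0.070 for FOLR2, -0.23 for CHIA, -0.015 for XPNPEP2, 0.094 for DUSP6, -0.10 for IL6, -0.45 for NR5A2, -0.071 for KLF4, -0.40 for SPATA18, -0.28 for HYOU1, -0.18 for MT1M and -0.051 for LCK. With median centring, the difference was -0.16 for the dimmer NR3C1 probe, -0.018 for DNAJC7, -0.13 for the brighter NR3C1 probe, -0.063 for MED1, -0.11 for CENPE, -0.075 for ASNS, -0.13 for ELOVL6, -0.036 for ENO2, -0.062 for H4C3, -0.087 for PTPN1 and -0.074 for H1-4. Without slide 2, the difference was -0.021 for the dimmer NR3C1 probe, -0.0061 for MED1, -0.26 for HYOU1 and -0.059 for ELOVL6. With quantile normalization, the difference was -0.23 for the dimmer NR3C1 probe. With normexp and quantiles, the difference was -0.089 for the dimmer NR3C1 probe. With normexp and the 75th percentile, the difference was 0.0017 for MALT1. Leaving out 1 array moved the dimmer NR3C1 probe between -0.0046 and 0.048. The list medians, other than under median centring, moved past their replicate spread for 4 of 22 lists with slide as a block and 1 each with quantile normalization and normexp. Dim probes limit precision: the median SE was 0.12 among the dimmest 7947 probes and 0.06 among the brightest 7947.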
